A study of Mus musculus with 16 samples.

Results

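Csf1r, the receptor through which macrophages receive survival signals, its ligands Csf1 and Il34, and 6 further genes of macrophages (Adgre1, Cd68, Cd163, Mrc1, Trem2 and Lyz2) were followed across 16 mouse rhabdoid tumors. These 9 genes, of 10 chosen by name, were found among the 24951 genes of both the count and the TPM tables (TPM is a transcript level scaled to the library total and corrected for gene length). Each tumor came from a different Smarcb1 flox/flox;R26-CreERT2 mouse, in which tamoxifen given before birth activates a ubiquitously expressed Cre and deletes the tumor suppressor Smarcb1 in unrestricted cell types. The labels place 5 tumors inside the central nervous system (CNS), which the study calls Shh tumors, 6 inside the skull but outside the CNS (intracranial Myc), and 5 outside the skull (extracranial Myc, from the back, jaw, nose, mouth and jaw). The 5 Shh tumors were induced at embryonic day 6 and taken at 30 to 180 days. The 6 intracranial Myc tumors comprised 1 induced at day 6, 1 at day 7 and 4 at day 8, taken at 52 to 170 days, and the 5 extracranial Myc tumors 1 at day 6 and 4 at day 8, taken at 80 to 210 days. Every group carried the Smarcb1 deletion, on a mixed 129/SV and C57BL/6 background, and no tumor-free tissue was analysed here. Tumors were dissected as bulk tissue, so each value mixes tumor cells with whatever else the piece held.

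Macrophages are phagocytes that settle in tissues during development or arrive later as blood monocytes. Csf1r is a receptor tyrosine kinase of this lineage, and Csf1 and Il34 are its alternative ligands, with Il34 known as a neuronal and epidermal ligand on which microglia, the macrophages of the brain parenchyma, and skin Langerhans cells depend. Csf1r is shared by microglia, by the macrophages of brain borders and peripheral tissues, and by osteoclasts, the bone-resorbing cells that form from the same precursors. Adgre1 (F4/80), Cd68 and Lyz2 are broad markers, Mrc1 and Cd163 are scavenger receptors of border and peripheral tissue macrophages, and Trem2 is a lipid-sensing receptor that signals through the adaptor Tyrobp.

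Total counts ran from 17889968 to 110177889 per tumor, so that a count of 3 corresponded to 0.0272 to 0.168 CPM (counts per 1e+06 counts). Smarcb1 itself was listed at 3.99 to 58.1 TPM in Shh and 6.48 to 43.7 TPM in Myc tumors, and did not pass the test between them (edgeR log2 fold change -0.59), but passed it without 29048 (-1.97, adjusted p = 0.0147) and was at 0.14 within mice with numbered names. These gene-level counts cannot be split into deleted and retained exons and so do not check the deletion. Several tumors stood apart from their group. Shh tumor 29048 and intracranial Myc tumor R26P115 held the highest Smarcb1 level of their groups, and 29048 also held a summed level of 3749 TPM over 5 oligodendrocyte genes, against a median of 75.8 TPM in Shh tumors, and the highest summed level over 8 neuron genes, 3746 TPM against a median of 596 TPM. The extracranial mouth tumor 43998A held 31549 TPM summed over 10 osteoclast genes, followed by the jaw tumor R26P123 with 4018 TPM and the back tumor 43825B with 1684 TPM, whereas the other 13 tumors stayed between 11.5 and 352 TPM. The nose tumor 43990A is extracranial by its label and is placed inside the skull in other material of the study.

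The genes lie on 8 autosomes of the mm10 (GRCm38) build, here with GENCODE vM21 gene bounds. Csf1r (ENSMUSG00000024621) spans chr18:61100598-61132149 and overlaps Hmgxb3 on the opposite strand, so without strand-aware counting, which the sources used here do not state, their shared reads cannot be told apart. Csf1 (ENSMUSG00000014599) spans chr3:107741048-107760469 and Il34 (ENSMUSG00000031750) spans chr8:110741829-110805924, where 2 antisense genes overlap it. Adgre1 lies at chr17:57358691-57483527 and Trem2 at chr17:48346401-48354147. Cd68 lies at chr11:69664213-69666153, Cd163 at chr6:124304656-124330527, and Mrc1 at chr2:14229392-14332057. Lyz2 lies at chr10:117277331-117282321, beside its near-identical copy Lyz1 at chr10:117287797-117292868. All 9 are protein-coding.

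Macrophage genes were lower in Shh than in Myc tumors. Among the 9 genes, 8 were called lower in Shh (edgeR adjusted p under 0.05 over all genes and a log2 fold change beyond 1), 0 were called higher, and the fitted change was negative for 9 of 9. For comparison, 13.1% of the 21854 genes tested were called lower in Shh in this comparison. The median log2 fold change was -3.03 over the 9 genes and -0.15 over all genes tested. In bulk tumors, fewer macrophages and less RNA per macrophage cannot be told apart. Within the tumors induced at embryonic day 6 (5 Shh against 2 Myc) the same count was 8, where 10.6% of all genes tested were called lower. Within mice with numbered names it was 6, without Cd163 (-3.26, adjusted p = 0.178) and Trem2 (-1.40, adjusted p = 0.0701), where 11.5% of all genes tested were. Within mice named R26P (2 Shh against 3 Myc) it was 0, where edgeR called no gene of the whole table and 3514 genes had an unadjusted p under 0.05. The fitted changes of the 8 genes there ran from -1.16 (Trem2) to -6.22 (Cd163). Leaving out 43998A and R26P115 together, or 29048 and R26P115 together, left the count at 8.

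**Figure D1:**
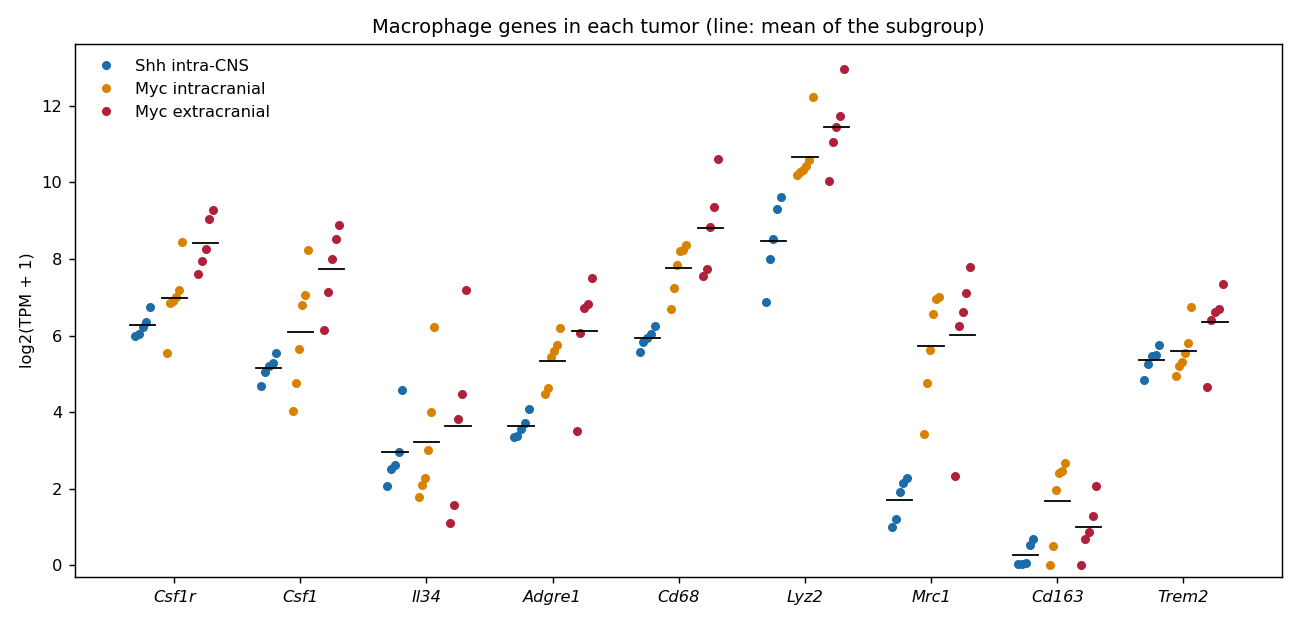
Level of each of the 9 genes as log2(TPM + 1), with 1 point per tumor, blue for the 5 Shh, orange for the 6 intracranial Myc and red for the 5 extracranial Myc tumors, and a black line at the group mean. Shh tumors lie below every Myc tumor for Cd68, Mrc1 and Lyz2, and overlap them for the other 6 genes.

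Csf1r itself was measured at 106, 64.7, 73.4, 80.6 and 62.9 TPM in the 5 Shh tumors. The 6 intracranial Myc tumors ranged from 45.8 to 346 TPM with a median of 123 TPM, and the extracranial Myc tumors 43825B, 43987A, 43990A, 43998A and R26P123 gave 530, 244, 193, 618 and 306 TPM. The Shh tumors sat within a narrow band, 10 of 11 Myc tumors lay above all of them, and the exception, R26P115, lay below all of them. Csf1r was lower in Shh than in Myc tumors by a log2 fold change of -2.24 ± 0.52 (SE, 5 against 11 tumors, edgeR adjusted p = 0.00383).

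Among Myc tumors the ligand Csf1 had an SD of 1.57 on log2(TPM + 1) against 1.09 for its receptor. Shh tumors gave 37.7, 35.8, 24.8, 45.7 and 32.1 TPM, against 15.4 to 301 TPM (median 79.4) in intracranial Myc and 469, 139, 69.7, 367 and 254 TPM in extracranial Myc tumors in the same order. Again 9 of 11 Myc tumors exceeded every Shh tumor, and R26P115 was lowest in the series. Csf1 was lower in Shh tumors by a log2 fold change of -2.86 ± 0.72 (SE, edgeR adjusted p = 0.0065). With limma on log2(TPM + 1) the difference was -1.69 and was not called (adjusted p = 0.0603).

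Il34, the alternative ligand, overlapped between the groups. Its level was 23.0 TPM in Shh tumor 29048, the tumor with the highest neuron and oligodendrocyte gene levels, whose part in it was not tested, and 3.22 to 6.80 TPM in the other 4 Shh tumors. Among Myc tumors it reached 144 TPM in the extracranial tumor 43825B and 73.7 TPM in the intracranial tumor 29941C, but stayed between 1.16 and 21.3 TPM in the other 9. Myc tumors lay both above and below the Shh range, and the difference between Shh and Myc did not pass the test (log2 fold change -2.13 ± 1.12, SE, edgeR adjusted p = 0.151). It was at -1.24 without 43825B and at -2.91 without 29048, and did not pass there either. The log2 ratio of Il34 to Csf1, computed on TPM + 1, averaged -2.20 ± 1.05 (SD, n = 5) in Shh and -3.42 ± 2.28 (SD, n = 11) in Myc tumors, a difference of 1.22 that did not exceed the spread (exact two-sided permutation test, p = 0.273). Between intracranial Myc (-2.86 ± 2.77, SD, n = 6) and extracranial Myc tumors (-4.10 ± 1.56, SD, n = 5) the ratio differed by 1.24 (exact two-sided permutation test, p = 0.398, the second of 2 such tests), and by 0.553 without 29941C and 1.862 without 43989C. Csf1 exceeded Il34 in 15 of 16 tumors, the exception being 29941C with 73.7 TPM of Il34 against 48.8 TPM of Csf1.

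**Figure D2:**
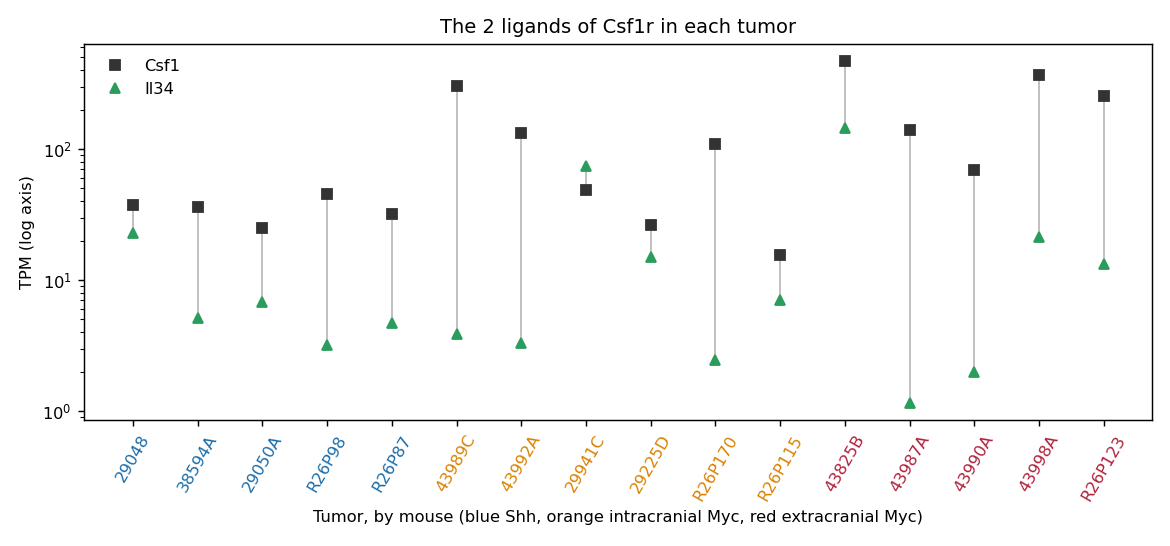
Csf1 (squares) and Il34 (triangles) in each of the 16 tumors in TPM on a log axis, with tumors named by mouse and colored by group. Il34 lies below Csf1 in every tumor except 29941C, and the gap ranges widely within each group.

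Among the broad markers, Cd68, a lysosomal membrane protein of phagocytes, separated the groups without overlap. It was at 46.7, 60.6, 56.4, 75.4 and 65.2 TPM in Shh tumors, at 103 to 328 TPM (median 263) in intracranial Myc and at 651, 187, 211, 1563 and 457 TPM in extracranial Myc tumors. The highest Shh tumor was below the lowest Myc tumor, R26P115, and the log2 fold change was -3.29 ± 0.62 (SE, edgeR adjusted p = 0.000787). Cd68, Mrc1 and Lyz2 were the 3 of 9 genes whose Shh tumors lay below every Myc tumor, a pattern held by 2.44% of the 21841 genes with a TPM above 0 in any tumor.

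Adgre1, an adhesion receptor used to define mouse macrophages, was at 9.29, 9.48, 16.1, 12.2 and 10.8 TPM in Shh tumors. It was at 21.1 to 72.8 TPM (median 44.9) in intracranial Myc and at 181, 66.3, 113, 10.4 and 105 TPM in extracranial Myc tumors. The single overlapping Myc tumor was 43998A, which had the highest Csf1r and Cd68 of the series but an Adgre1 level within the Shh range. The log2 fold change was -3.03 ± 0.57 (SE, edgeR adjusted p = 0.000758). Lyz2, the lysozyme of macrophages and neutrophils, was the most abundant of the 9 genes in every group by median. It was at 116, 255, 789, 625 and 368 TPM in Shh tumors against 1171 to 4753 TPM in intracranial and 1054 to 7989 TPM in extracranial Myc tumors, and the fitted change was -3.12 ± 0.62 on the log2 scale (SE, edgeR adjusted p = 0.00122). Reads of Lyz2 can be shared with Lyz1, which was listed at 233 TPM in 43825B and at 0.537 to 11.02 TPM in the other 15 tumors, and 43825B was also the tumor of highest Lyz2.

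Of the scavenger receptors, Mrc1 (the mannose receptor CD206) showed the largest fitted difference of the 9 genes. Its levels were 3.43, 1.32, 2.80, 1.0 and 3.89 TPM in Shh tumors, 9.78 to 129 TPM (median 70.7) in intracranial Myc tumors, and 219, 75.1, 96.5, 4.08 and 137 TPM in extracranial Myc tumors. All 11 Myc tumors lay above the Shh range, although 43998A was close to it. The log2 fold change was -5.65 ± 0.88 (SE, edgeR adjusted p = 0.000194). Cd163, a receptor for haptoglobin-bound hemoglobin, was near the limit of counting in several tumors. Shh tumors 38594A, R26P98 and R26P87 and Myc tumors 29225D and 43998A held 1, 1, 2, 1 and 1 counts, while the other tumors held 21 to 632 counts. Its highest levels, 4.31 to 5.37 TPM, were found in 3 intracranial Myc tumors. The log2 fold change of -3.75 ± 1.35 (SE, edgeR adjusted p = 0.0413) lost its call without any of 9 tumors. These were 38594A, 29050A, R26P98 and R26P87 of Shh and 43825B, 43989C, 43992A, 29941C and R26P170 of Myc, with adjusted p from 0.0533 to 0.0894, and limma on log2(TPM + 1) did not call it (-1.10, adjusted p = 0.0606).

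Trem2 showed the smallest difference of the 8 genes called. Shh tumors gave 52.5, 43.1, 37.1, 43.7 and 27.8 TPM, intracranial Myc tumors 29.9 to 106 TPM (median 41.9), and extracranial Myc tumors 163, 103, 83.1, 24.2 and 97.5 TPM. Above every Shh tumor lay 2 of 6 intracranial and 4 of 5 extracranial Myc tumors, the extracranial exception again being 43998A. The log2 fold change of Trem2 was -1.32 ± 0.41 (SE, edgeR adjusted p = 0.0222), and it lost its call without Shh tumor 29050A (-1.29, adjusted p = 0.0518) or R26P87 (-1.20, adjusted p = 0.06), and with limma on log2(TPM + 1) (-0.58, adjusted p = 0.27).

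PU.1 and C/EBP factors are known regulators of myeloid genes, and the genes encoding them were among those measured, so the upstream sequences of the members were read for their motifs. RefSeq windows (GRCm38.p6) were found for 6 of the 9 genes, Csf1, Cd68, Cd163, Mrc1, Trem2 and Lyz2. The 250 bases before each start were searched on both strands for GAGGAA, the core of the PU.1 motif, and for TTGCNNAA, a form of the C/EBP motif. GAGGAA was present in 3 of the 6 (Cd68, Mrc1 and Trem2) and in 23.3% of all 32851 promoters of that length, and TTGCNNAA in 1 of the 6 (Cd68) and in 9.56% of all. The 3 windows with GAGGAA are shown because they belong to the called genes with a wide span of differences, Mrc1 the largest and Trem2 the smallest. Capitals mark matches to either motif on either strand, so that TTCCTC is GAGGAA on the opposite strand, and each window is written 5′ to 3′ along its gene, for Mrc1 (chr2:14229164-14229413, plus strand), Cd68 (chr11:69666171-69666420, minus strand) and Trem2 (chr17:48346151-48346400, plus strand):
Mrc1: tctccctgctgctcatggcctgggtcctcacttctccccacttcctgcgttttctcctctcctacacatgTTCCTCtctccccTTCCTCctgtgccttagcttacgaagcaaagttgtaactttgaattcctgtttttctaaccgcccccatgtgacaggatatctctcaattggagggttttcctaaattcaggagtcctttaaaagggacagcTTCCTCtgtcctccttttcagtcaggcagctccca
Cd68: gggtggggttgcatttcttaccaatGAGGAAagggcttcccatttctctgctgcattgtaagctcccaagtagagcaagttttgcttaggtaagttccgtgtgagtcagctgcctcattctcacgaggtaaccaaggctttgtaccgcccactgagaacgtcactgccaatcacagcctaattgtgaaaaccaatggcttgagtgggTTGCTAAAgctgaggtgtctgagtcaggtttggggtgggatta
Trem2: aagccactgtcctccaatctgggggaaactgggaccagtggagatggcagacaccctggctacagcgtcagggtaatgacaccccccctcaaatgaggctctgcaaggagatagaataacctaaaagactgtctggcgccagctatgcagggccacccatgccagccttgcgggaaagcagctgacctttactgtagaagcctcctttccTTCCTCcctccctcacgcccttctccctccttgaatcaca
Mrc1 held 3 GAGGAA matches in this window, and Cd68 and Trem2 held 1 each. A match is a description of the letters and not of binding.

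The difference between Shh and Myc was then asked separately for each Myc location. Against intracranial Myc tumors, 7 of 9 genes were called lower in Shh, where 12.2% of all genes tested were. These were Csf1r (-1.48 ± 0.43), Csf1 (-2.14 ± 0.67), Adgre1 (-2.42 ± 0.51), Cd68 (-2.49 ± 0.51), Cd163 (-4.20 ± 1.41), Mrc1 (-5.37 ± 0.90) and Lyz2 (-2.67 ± 0.61), as log2 fold changes ± SE with edgeR adjusted p from 0.000666 to 0.0363. Csf1 lost this call without 29048, 38594A, 43989C, 29050A or R26P87 (adjusted p 0.0505 to 0.072), and Cd163 without 38594A, 43989C, 43992A, 29050A, R26P98, R26P170 or R26P87 (adjusted p 0.0542 to 0.0759). With limma on log2(TPM + 1), neither Csf1r (-0.72, adjusted p = 0.196) nor Csf1 (-0.94, adjusted p = 0.307) was called against intracranial Myc tumors. Against extracranial Myc tumors, 7 of 9 genes were called lower in Shh, where 12.9% of all genes tested were. These were Csf1r (-2.82 ± 0.47), Csf1 (-3.41 ± 0.73), Adgre1 (-3.53 ± 0.55), Cd68 (-3.88 ± 0.56), Mrc1 (-5.92 ± 0.93), Trem2 (-1.71 ± 0.42) and Lyz2 (-3.51 ± 0.65), with adjusted p from 0.000211 to 0.00722. None of these calls was lost on leaving out a single tumor, although Cd68 was at -3.13 without 43998A and Lyz2 at -2.92 without 43825B. However, limma on log2(TPM + 1) did not call Trem2 (-0.99, adjusted p = 0.0882). Both comparisons use the same 5 Shh tumors. Without the 3 tumors rich in osteoclast genes (43998A, 43825B and R26P123), 2 extracranial tumors were left, 6 genes were called, and Csf1 (-2.06, adjusted p = 0.119) was not. In that subset 1438 of the 21593 genes tested were called lower in Shh.

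Between the Myc locations, 0 of 9 genes were called by edgeR, DESeq2 or limma, and edgeR called 0.00470% of the 21261 genes tested. The fitted change, intracranial minus extracranial, was negative for 8 of 9 genes and positive for Cd163 (1.28 ± 1.22). Among the 8, Il34 (-1.09) turned to 0.87 without 43825B and to 1.19 within tumors induced at day 8. At an unadjusted edgeR p under 0.05 there were 2 genes, Csf1r (-1.33 ± 0.48, adjusted p = 0.354) and Cd68 (-1.39 ± 0.55, adjusted p = 0.373), the latter at -0.66 without 43998A. Csf1r was above 193 TPM in the 5 extracranial tumors and below 146 TPM in 5 of the 6 intracranial tumors, with 43989C (346 TPM) as the exception. The groups overlapped for each of the 9 genes. In simulated counts of this comparison over 21261 genes, 54 of 200 genes changed 4-fold and 118 of 200 changed 8-fold were recovered, which bears on how far smaller differences could be seen.

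**Figure D3:**
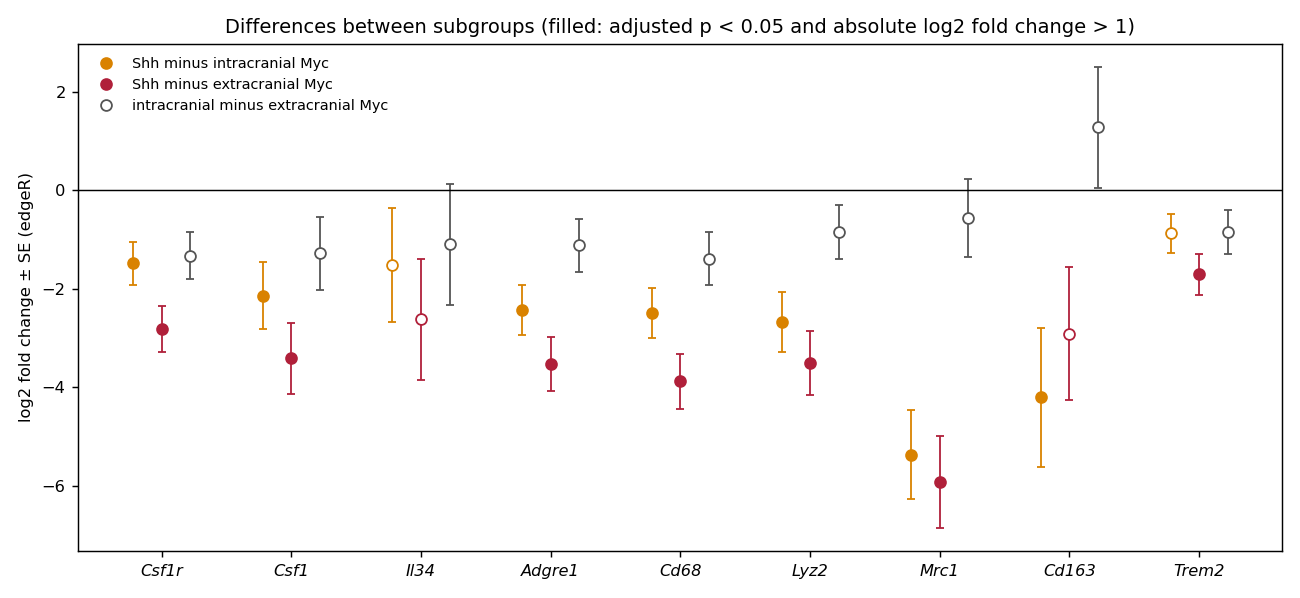
edgeR log2 fold change with its SE for each gene in Shh minus intracranial Myc (orange), Shh minus extracranial Myc (red) and intracranial minus extracranial Myc (gray), filled where called. The orange and red points share the Shh tumors and lie below 0 for every gene, Mrc1 lowest, while no gray point is filled.

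The balance of the markers was described by their TPM relative to that of Csf1r in the same tumor. The median ratio of Mrc1 to Csf1r was 0.0323 in Shh (0.0124 to 0.0619) against 0.376 in Myc tumors, of which 10 lay between 0.213 and 0.882 and 43998A at 0.00659. For Adgre1 the median ratio was 0.152 in Shh (0.0875 to 0.219) and 0.342 in Myc tumors (0.0168 to 0.585). For Cd68 it was 0.935 (0.439 to 1.04) and 1.49 (0.767 to 2.53). For Lyz2 it was 5.85 (1.09 to 10.7) and 10.96 (1.71 to 27.1). The ranges of Shh and Myc tumors overlapped for each of these genes. No ratio is given for Cd163, which held 3 counts or fewer in 3 of 5 Shh tumors. The median ratio of Il34 was 0.0797 in Shh (0.0400 to 0.216), 0.0783 in intracranial and 0.0344 in extracranial Myc tumors, the Myc tumors spanning 0.00474 to 0.618. Trem2 went the other way from Mrc1, Adgre1, Cd68 and Lyz2 and had a median ratio of 0.506 in Shh (0.442 to 0.666) and 0.319 in Myc tumors, where 43998A was lowest at 0.0392 and R26P115 highest at 0.653. Csf1 per Csf1r was similar in median, at 0.511 and 0.594. Thus the order of the genes by median TPM differed between groups, with Mrc1 in the eighth place in Shh (2.80 TPM) and in the fifth in Myc tumors (93.5 TPM), and Trem2 in the fourth (43.1 TPM) and the sixth (55.2 TPM). These ratios are descriptions and carry no test.

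The mouth tumor 43998A combined the highest Csf1r (618 TPM) and Cd68 (1563 TPM) of the series with the lowest extracranial Adgre1, Mrc1, Cd163, Trem2 and Lyz2. Tyrobp, the adaptor of Trem2, and Spi1, which encodes PU.1, were also highest there, at 2032 and 307 TPM. By contrast C1qa, a complement component made by macrophages, was at 155 TPM, lower than in any other tumor, and the Fc receptor gene Fcgr3 was at 18.8 TPM against 135 to 440 TPM in 9 of the other 10 Myc tumors and 62.4 TPM in R26P115. Osteoclast genes were high in the same tumor, with Ctsk (cathepsin K) at 11043 TPM, Acp5 (tartrate-resistant acid phosphatase) at 9967 TPM, Mmp9 at 8412 TPM and the proton pump subunit Atp6v0d2 at 822 TPM. Calcr of the same list was not, at 2.71 TPM against 99.1 TPM in 43990A and 99.7 TPM in Shh tumor R26P98. In R26P123 and 43825B, Ctsk was at 1406 and 519 TPM, and Adgre1 and Mrc1 were high as well. The part of osteoclast genes in the levels of Csf1r and Cd68 was not tested. Without 43998A, the differences between Shh and Myc tumors remained called for all 8 genes.

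**Figure D4:**
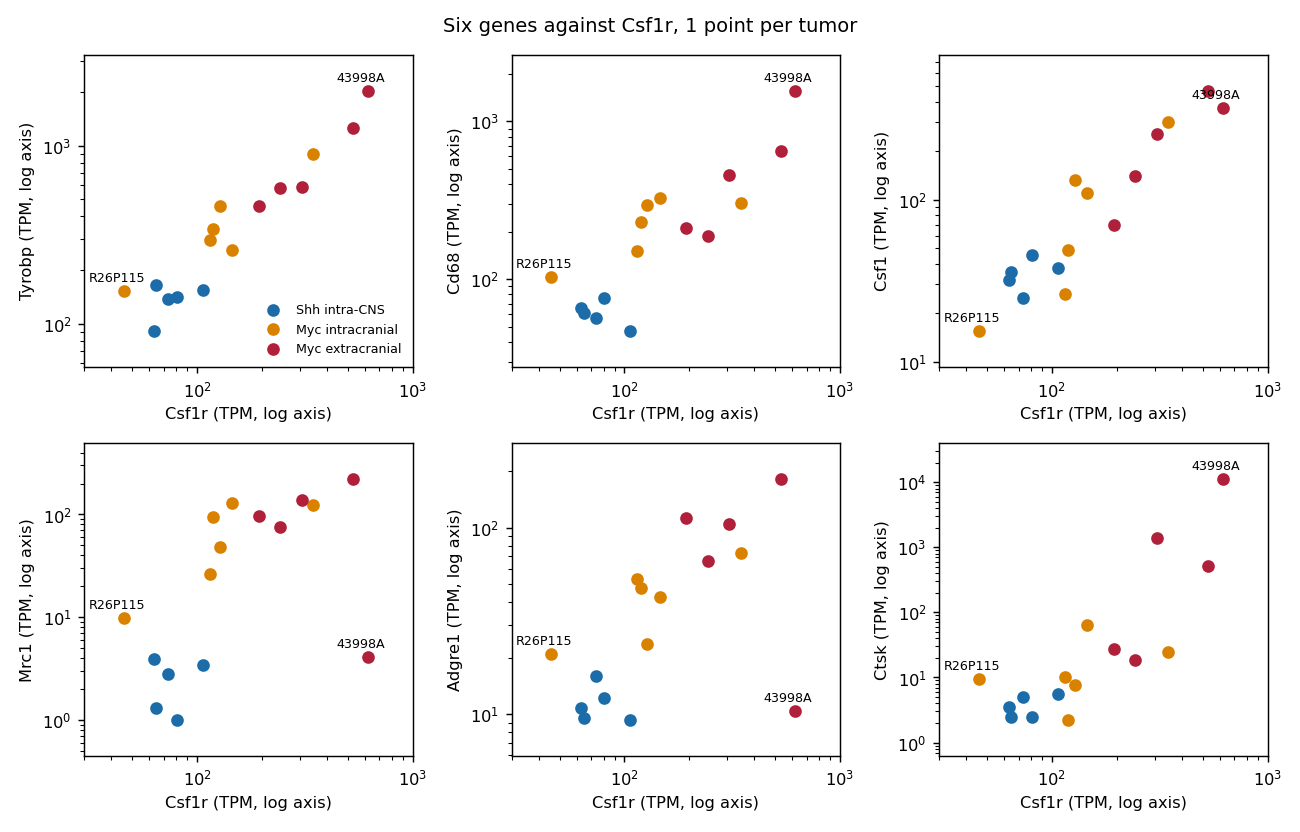
TPM of 6 genes against Csf1r TPM on log axes, 1 point per tumor, colored by group, with 43998A and R26P115 named. Tyrobp, Cd68 and Csf1 follow Csf1r up to 43998A, whereas 43998A is the lowest Myc tumor for Mrc1 and Adgre1 and the highest for Ctsk.

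Across the 11 Myc tumors, likeness to Csf1r was measured as the Pearson correlation of log2(TPM + 1), as a description over tumors that differ in site, depth and cell content. Csf1 was the most alike of the other 8 genes (r = 0.93, Spearman rho = 0.95), followed by Cd68 (r = 0.85, rho = 0.81) and Lyz2 (r = 0.55, rho = 0.37). Trem2 (0.46), Adgre1 (0.27), Il34 (0.27), Mrc1 (0.21) and Cd163 (0.08) were less alike. These values rested on 43998A for several genes. Without it, over 10 tumors, r became 0.92 for Trem2, 0.86 for Adgre1, 0.87 for Mrc1 and 0.88 for Lyz2, and stayed at 0.92 for Csf1 and 0.82 for Cd68. Cd163 rose to 0.39, and Il34 went to 0.21. Without the 2 tumors farthest from the median of Csf1r, R26P115 and 43998A, r was 0.88 for Csf1, 0.70 for Cd68, 0.96 for Lyz2, 0.93 for Trem2, 0.80 for Adgre1 and 0.74 for Mrc1. The median r was 0.37 over the 8 genes and 0.04 over the 14269 genes ranked. Among the other lists the median was 0.73 for osteoclast, 0.52 for skeletal muscle, 0.50 for Csf1 axis partner, 0.44 for microglia and 0.36 for pan-macrophage genes, so the value is not particular to the 8 genes.

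**Figure D5:**
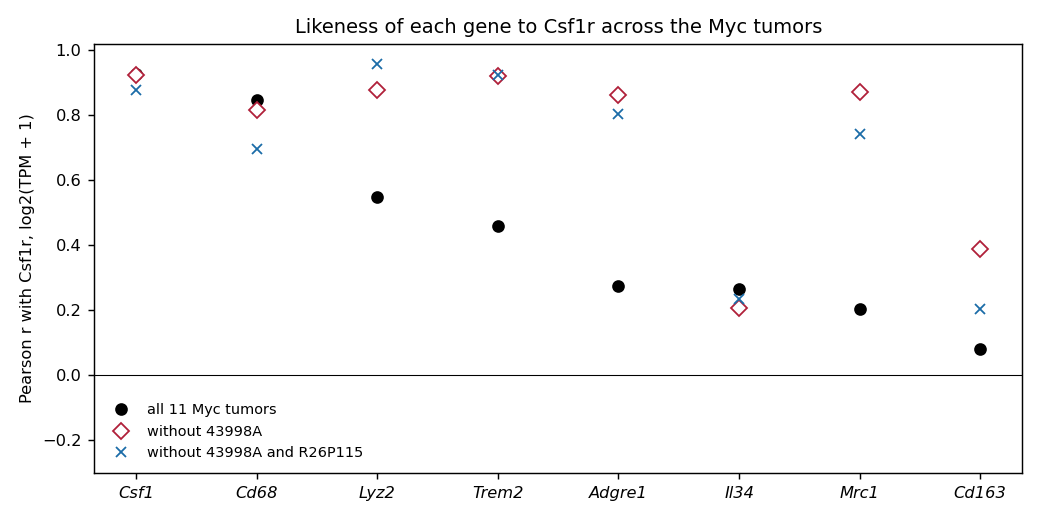
Pearson r with Csf1r across Myc tumors for each of the other 8 genes, over all 11 tumors (black), without 43998A (open red) and without 43998A and R26P115 (blue crosses). The values for Lyz2, Trem2, Adgre1 and Mrc1 move upward once 43998A is left out, and those for Csf1 and Cd68 stay above 0.69.

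The genes most like Csf1r over the 11 Myc tumors were, in order, Snx20 (r = 0.98), Laptm5 (0.98), Nckap1l (0.98), Cyth4 (0.97), Psd4 (0.96), Was (0.96), Tyrobp (0.96), Ap1g2 (0.95), Ncf4 (0.95) and Pik3ap1 (0.95). Laptm5 encodes a lysosomal protein of blood cells, Nckap1l and Was encode actin regulators of blood cells, and Ncf4 encodes a subunit of the phagocyte oxidase. Of these 10 genes, 3 (Snx20, Laptm5 and Nckap1l) were also among the 10 most alike without R26P115 and 43998A, where Lyz2 took the fifth place.

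Genes that act with the Csf1 axis were read from lists of known function. Of 18 partners (myeloid transcription factors, sister cytokines and their receptors, and signaling proteins), 15 were called lower in Shh than in Myc tumors and 0 higher, with a median log2 fold change of -2.50. Over all genes tested, 13.1% were called lower in Shh and 12.9% higher, and the median was -0.15. Csf3, the granulocyte colony-stimulating factor (-7.76 ± 1.59), Cebpb, a C/EBP factor (-5.58 ± 0.71), and Csf2rb, the shared beta chain of the GM-CSF receptor (-3.60 ± 0.59), changed most, Csf3 being at -6.52 without R26P170. Spi1 (-3.25 ± 0.63) and Tyrobp (-2.81 ± 0.56) were also called. The 3 not called were Csf2 (-2.15 ± 1.15), Csf2ra (-0.06 ± 0.38) and Ptprz1 (2.94 ± 1.24), a neural receptor of Il34. Of 18 further pan-macrophage genes, 17 were called lower in Shh, the exception being Mertk (-0.67 ± 0.37), and the largest changes were in Fcgr4 (-4.99 ± 0.87), Cd14 (-4.38 ± 0.66) and Ms4a7 (-3.48 ± 0.58).

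Lists of macrophage states and of neighboring cell types moved as follows between Shh and Myc tumors, where 13.1% of all genes tested were called lower in Shh. Of 13 genes listed as tissue-resident or scavenger, 9 were called lower in Shh. At a mean count of at least 50 the largest changes were in Chil3 (-6.72 ± 1.14), F13a1 (-6.60 ± 1.33) and Pf4 (-6.09 ± 0.97). Vsig4 was also called (-6.77 ± 1.90). Lyve1 (-3.77 ± 1.48), Timd4 (-1.93 ± 1.21), Retnla (-2.78 ± 1.71) and Mgl2 (-3.73 ± 1.55) were not called. F13a1 was at -7.52 without 29048, and Pf4 at -5.43 without 43825B. Of 10 inflammatory genes 8 were called lower, led by Ptgs2 (-6.91 ± 1.74), Ccl5 (-6.75 ± 1.52) and Il6 (-4.91 ± 1.28). Ccl5 was at -5.40 without 29225D, and Il6 at -4.09 without 43987A. The 13 lipid-associated genes split, with 6 called lower, among them Lgals3 (-4.75 ± 0.70), Spp1 (-4.27 ± 0.86) and Cd9 (-4.19 ± 0.75), and 2 called higher in Shh, Cst7 (1.95 ± 0.41) and Fabp5 (1.43 ± 0.44), where 12.9% of all genes tested were called higher. Of 10 microglia genes, 1 was called lower in Shh (Olfml3, -1.84 ± 0.50) and 2 were called higher (Sall1, 3.19 ± 1.10, and Siglech, 2.94 ± 0.71). These counts were near the shares of all genes tested, 13.1% lower and 12.9% higher. Within tumors induced at day 6, Sall1 (2.25, adjusted p = 0.286), Siglech (2.60, adjusted p = 0.177) and Olfml3 (-1.31, adjusted p = 0.192) were not called. Siglech was at 2.36 without 29048, and Sall1 lost its call without 29048, 38594A, R26P98, 43989C or 29225D (edgeR adjusted p 0.0508 to 0.068). P2ry12 (-0.15 ± 0.49) and Tmem119 (-1.08 ± 0.54), which are markers of homeostatic microglia, did not pass the test.

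Markers of other cells moved with the same contrast, in which 13.1% of all genes tested were called lower in Shh. Of 12 neutrophil and monocyte genes 9 were called lower in Shh, led by S100a9 (-7.20 ± 1.43), Camp (-6.95 ± 2.21) and S100a8 (-6.82 ± 1.31). Without 29050A or R26P123, S100a9 was at -8.26 or -6.44 and S100a8 at -7.67 or -6.22. Camp lost its call without 29048, 38594A, R26P98 or R26P87 (adjusted p 0.051 to 0.0557) and was at -4.26 without 43989C. It was not called within tumors induced at day 6 either (-2.29, adjusted p = 0.279). The summed level of the list was 1.91 to 22.3 TPM in Shh and 40.4 to 1089 TPM in Myc tumors, with Elane at 0 counts in the 5 Shh tumors. Lyz2 is also expressed by neutrophils. Of 10 osteoclast genes 7 were called lower in Shh, led by Mmp9 (-9.92 ± 2.51), Acp5 (-8.95 ± 2.17) and Atp6v0d2 (-8.87 ± 2.52), with summed levels of 11.5 to 119 TPM in Shh, 58.2 to 227 TPM in intracranial and 237 to 31549 TPM in extracranial Myc tumors. Without 43998A these 3 differences were smaller, with Mmp9 at -7.65, Acp5 at -6.59 and Atp6v0d2 at -6.27, and remained called. Atp6v0d2 was not called with limma on log2(TPM + 1) (-2.72, adjusted p = 0.103) or within numbered mice (-9.31, edgeR adjusted p = 0.0743). Calcr went the other way without a call (0.92 ± 1.48), and held 99.7 TPM in R26P98, the Shh tumor of highest summed level. Against intracranial Myc tumors alone Calcr was called higher in Shh (4.61 ± 1.58, edgeR adjusted p = 0.04). Of 8 fibroblast genes, a source of Csf1, 7 were called lower, led by Lum (-6.43 ± 1.54), Col1a2 (-5.59 ± 0.91) and Dcn (-5.02 ± 1.38), with summed levels of 148 to 1011 TPM in Shh and 627 to 8013 TPM in Myc tumors. Dcn was at -3.48 without 43825B.

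Of the remaining lists, read against the 13.1% of all genes tested that were called lower and the 12.9% called higher in Shh, 3 of 12 lymphoid, dendritic and mast cell genes were called lower, with Cd4 at -2.83 ± 0.79, against summed levels of 3.42 to 17.9 TPM in Shh and 3.37 to 42.8 TPM in Myc tumors. Of 6 skeletal muscle genes 3 were called lower (Ckm, -8.36 ± 2.34, Tnnt3, -6.57 ± 1.70, and Acta1, -6.01 ± 2.04), with a summed level of 2.66 to 7.46 TPM (median 5.68) in Shh and 3.31 to 615 TPM (median 15.9) in Myc tumors. Without R26P123 they were at -7.10, -5.48 and -4.87. Of 6 keratinocyte genes 1 was called lower (Dsg3, -7.71 ± 2.75), but the summed level of the list was 7.10 to 12.5 TPM (median 9.42) in Shh and 1.94 to 1841 TPM (median 4.23) in Myc tumors. The highest value was that of R26P123, and 8 of 11 Myc tumors lay below every Shh tumor, the reverse of the direction of Dsg3. In the opposite direction, 5 of 8 neuron genes were called higher in Shh, led by Map2 (5.55 ± 0.89), Rbfox3 (5.28 ± 0.80) and Camk2a (4.42 ± 0.997), and 4 of 5 oligodendrocyte genes were, led by Mobp (6.25 ± 1.85), Mog (6.08 ± 1.66) and Mag (3.86 ± 0.98). Without Shh tumor 29048 these 3 lost their calls, at 0.57, 1.003 and -0.56 (edgeR adjusted p 0.494 to 0.814). Acta1 lost its call without 38594A, 29050A, R26P98 or R26P87 (adjusted p 0.0657 to 0.0695), and Dsg3 without any of the 5 Shh tumors or R26P123 (adjusted p 0.0631 to 0.0866), at -4.93 without the latter. Camk2a was at 3.27 without 29048. With the kind of mouse name (numbered or R26P) as a covariate in edgeR, Mobp (5.94, adjusted p = 0.0669) and Dsg3 (-6.18, adjusted p = 0.0592) were not called. Within tumors induced at day 6, Camk2a (3.15), Cd4 (-2.34), Acta1 (-5.75), Mobp (6.48), Mog (7.33) and Mag (3.50) were not called (adjusted p 0.0531 to 0.383). Within numbered mice, Ptgs2, Il6, Sall1, Camp, Dsg3, Ckm and Acta1 were not (adjusted p 0.0507 to 0.2). With limma on log2(TPM + 1), Il6, Olfml3, Camp, Cd4, Dsg3, Ckm, Acta1, Mobp, Mog and Mag were not called either (adjusted p 0.0524 to 0.455). The part of these cell types in the levels of Csf1, Il34 and Lyz2 was not tested.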

How the data were processed

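Poly(A) RNA of 16 tumors from 16 mice was sequenced with a stranded kit. Per the submitters' processing notes, reads were trimmed with Trim Galore and aligned with STAR 2.5.3a to mm10, and the authors deposited raw counts per gene and TPM values. The annotation and strand setting of the counting are not given in the sources used here. The members and gene lists were chosen with earlier results of these data known. Groups follow the tumor location in the labels. Counts were tested with edgeR 4.0.16 (TMM, quasi-likelihood test) over all genes with a count in any tumor, with Benjamini-Hochberg adjustment over all genes. A call needed both an adjusted p under 0.05 and a log2 fold change beyond 1 in either direction, and an SE is the absolute log2 fold change divided by the square root of F. Shh against Myc was fitted on 16 tumors, the Myc locations on 11, and Shh against each location in a fit of 3 groups. In simulated counts of Shh against Myc over 21854 genes, 118 of 200 genes changed 4-fold and 148 of 200 changed 8-fold were recovered. Named genes were the members, Smarcb1, from each list up to 3 called genes with the largest change and a mean count of at least 50, and the 10 genes most like Csf1r with a mean count of at least 50 in Myc tumors. Spi1, Tyrobp, C1qa, Fcgr3, Ctsk, Lyz1, Cst7, Fabp5, Vsig4, P2ry12, Tmem119 and list genes without a call were named after their values were seen. Alternatives were DESeq2 1.42.0, limma 3.58.1 on log2(TPM + 1), other size factors and filters, the kind of mouse name as a covariate, subsets of tumors and leaving out each tumor. Exact permutation tests were run in Python 3.11.15 with scipy 1.17.1. A listed macrophage gene and an oligodendrocyte gene are not reported here and enter no count of their lists.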

Additional observations from a re-analysis of the deposited data

Results flagged for a closer look

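Of 30 checks of a gene or of the ligand ratio within a group of 5 or 6 tumors, 2 placed a single tumor far from the others, where chance gives about 1 in 20. Mrc1 in the extracranial mouth tumor 43998A was lowest of its group, at a log2(TPM + 1) of 2.344 (4.08 TPM), with a gap to the next tumor of 0.718 of the group's range. The same tumor held the highest osteoclast gene levels of the series. Lyz2 in the intracranial Myc tumor 43989C was highest of its group, at a log2(TPM + 1) of 12.215 (4753 TPM), with a gap of 0.814 of the range, and the same tumor held the highest intracranial Csf1r (346 TPM) and Csf1 (301 TPM). The causes were not tested.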

How the results depend on the processing

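Limma on log2(TPM + 1) called 5 of the 9 genes lower in Shh than in Myc tumors, losing Csf1, Cd163 and Trem2, and the comparison within R26P mice called 0 (2 against 3 tumors). This alternative changed the test, the scaling and the pseudocount together. Under it the median log2 fold change of all genes went from -0.15 to 0.20, and the split of calls from 2829 higher and 2860 lower to 4082 higher and 1324 lower, while the 9 members stayed negative, Trem2 at -0.58 and Il34 at -0.46 being nearest 0. Across leaving out each tumor, 6 to 8 genes were called between Shh and Myc, 5 to 7 against intracranial and 7 against extracranial Myc tumors, and 0 between the Myc locations. DESeq2 called 8 genes between Shh and Myc and 9 against extracranial Myc, and 490 genes in all between the Myc locations where edgeR called 1 (2606 at an unadjusted p under 0.05). Of genes whose direction turned, Il34 between the Myc locations became 1.19 within tumors induced at day 8 and ranged from -2.54 to 0.87 on leaving out each tumor (0.87 without 43825B), and Il34 in Shh against extracranial Myc became 1.98 without 43998A, 43825B and R26P123. Smarcb1 between Shh and Myc became 0.14 within numbered mice and passed the test at -1.67 without 29048 and R26P115 and at -1.97 without 29048. Mobp became -2.52, Mog -0.29 and Mag -0.93 within R26P mice, a subset without 29048, and Mag became -0.59 without 29048 and R26P115 and ranged from -0.56 to 4.18 on leaving out each tumor. Without 43998A the median likeness of the 8 genes to Csf1r moved from 0.37 to 0.87. It also rose for pan-macrophage (0.36 to 0.89), Csf1 axis partner (0.50 to 0.87) and microglia genes (0.44 to 0.76). It fell for osteoclast (0.73 to 0.64), oligodendrocyte (0.12 to 0.05) and lymphoid, dendritic and mast cell genes (0.41 to 0.28). The removals of 43998A, of pairs and of 3 tumors were chosen after seeing the data. The Il34 to Csf1 ratio kept its direction and stayed past no threshold under each alternative. The cause of these shifts was not tested. No paired analysis was possible because no 2 tumors shared a mouse and replicate numbers are names alone. Counting error is largest for Cd163, at 1 or 2 counts in 5 tumors. The 3 tumors of lowest total count are not among them, but R26P98 and R26P87, next in order of total count, are.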
